A study of Mus musculus with 4 samples.

Results

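The genes described here are 10 genes of antigen presentation by the major histocompatibility complex (MHC). They are B2m, H2-K1, H2-D1, H2-T23, Tap1, Tap2, Tapbp, Cd74, H2-Aa and H2-Ab1, chosen by symbol from the 17778 genes of the deposited table, and all 10 had a row. None of the 10 differed between stressed and control mice by more than 1.5-fold, or beyond counting error at the estimated depth. Of the 14257 genes with a level of at least 0.5 RPKM (defined below) in either group, 2.78% passed this fold upward and 4.42% downward. A count of 0 of 10 is near these shares. Past counting error were 13.2% of those genes upward and 17.8% downward. At 2 times the estimated depth, 3 of the 10 would be past it, and the share of all genes at that depth was not computed. The tissue was the medial prefrontal cortex (mPFC), part of the frontal neocortex, of C57BL/6 mice (C57BL/6J in the study's methods), and its messenger RNA was sequenced. The control group (2 libraries) was not stressed. The CUMS group (2 libraries) came from mice that had gone through 3 weeks of chronic unpredictable mild stress, a schedule of changing mild stressors, and that then met the behavioral criteria of a depression-like state. The mice of both groups were males that were juvenile when the study began, and both sides of the mPFC were taken a day after the last behavioral test. CUMS mice that did not meet the criteria are not in these libraries, so the group stands for the affected mice and not for all stressed mice. The table held 1 mean per gene and group and no value for a single library, and the labels do not say whether a library was 1 mouse. No difference below could therefore be set against the spread between mice.

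MHC class I molecules carry peptides from inside the cell to its surface, where CD8 T cells read them. Each is made of a heavy chain and the light chain beta-2-microglobulin, and is loaded in the endoplasmic reticulum with peptides that the TAP transporter brings in. MHC class II molecules carry peptides taken up from outside and are made mainly by professional antigen presenting cells such as B cells, dendritic cells and activated macrophages. In the brain most neurons and glia show little of either class at rest. Microglia and border macrophages are the main cells able to make class II there, and class I of neurons has been linked to the remodeling of synapses. Interferons raise the transcription of both classes.

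By position, 8 of the 10 genes lay within 2.11 megabases of chromosome 17, the mouse MHC, between 33919478 (Tapbp) and 36032701 (H2-T23) on GRCm38. B2m lay on chromosome 2 (122147687 to 122153082) and Cd74 likewise outside the MHC. RefSeq promoter windows, from 250 bases before a transcription start to 50 bases after it, were found for 7 of the 10 genes. For 6 of them the 200 bases from 180 before the start to 19 after it are given here 5′ to 3′ on the gene's strand (RefSeq, GRCm38.p6). The windows were searched for letters known from the control of class I, class II or interferon-induced genes. Capitals mark 4 motifs, searched on both strands: CTGATTGG, the CCAAT box in the form of the MHC Y box, TGACG, the core of the cyclic-AMP response element in the X2 box, GGGATTCCC, an NF-kB site, and AAANNGAAA, the core of the interferon response element.
H2-K1 (chr17:34000328-34000527, minus strand): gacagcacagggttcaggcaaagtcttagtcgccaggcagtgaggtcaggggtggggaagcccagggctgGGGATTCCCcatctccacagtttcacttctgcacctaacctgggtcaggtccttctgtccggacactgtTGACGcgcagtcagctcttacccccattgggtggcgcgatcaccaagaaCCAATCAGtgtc
H2-D1 (chr17:35262914-35263113, plus strand): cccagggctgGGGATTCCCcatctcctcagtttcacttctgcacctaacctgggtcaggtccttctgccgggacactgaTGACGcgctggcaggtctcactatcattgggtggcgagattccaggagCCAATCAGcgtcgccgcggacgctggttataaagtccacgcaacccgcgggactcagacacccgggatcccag
H2-T23 (chr17:36032682-36032881, minus strand): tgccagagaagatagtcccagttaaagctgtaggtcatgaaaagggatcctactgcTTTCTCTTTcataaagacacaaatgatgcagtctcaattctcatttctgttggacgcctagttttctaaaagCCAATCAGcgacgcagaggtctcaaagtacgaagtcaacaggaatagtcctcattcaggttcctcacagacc
B2m (chr2:122147507-122147706, plus strand): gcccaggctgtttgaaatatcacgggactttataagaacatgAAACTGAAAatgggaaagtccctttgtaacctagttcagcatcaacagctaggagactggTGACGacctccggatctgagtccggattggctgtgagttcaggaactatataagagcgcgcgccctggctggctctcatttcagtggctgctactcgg
Tap1 (chr17:34187376-34187575, plus strand): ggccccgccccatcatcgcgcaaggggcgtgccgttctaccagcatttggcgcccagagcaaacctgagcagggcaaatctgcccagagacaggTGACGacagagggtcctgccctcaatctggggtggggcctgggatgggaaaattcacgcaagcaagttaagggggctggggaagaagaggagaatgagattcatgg
H2-Aa (chr17:34287804-34288003, minus strand): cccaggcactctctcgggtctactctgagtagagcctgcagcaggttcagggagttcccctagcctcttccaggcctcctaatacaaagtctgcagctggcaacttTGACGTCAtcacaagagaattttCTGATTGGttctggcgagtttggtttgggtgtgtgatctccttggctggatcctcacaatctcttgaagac

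The CTGATTGG letters stood on either strand in the windows of 5 of 7 genes (H2-K1, H2-D1, H2-T23, Tap1 and H2-Aa), against 4.1% of all 32851 windows of the mouse promoter table. In Tap1 the match lay outside the bases printed, at 222 bases before the start. TGACG was also found in 5 of 7 genes (B2m, H2-K1, H2-D1, Tap1 and H2-Aa), against 20.8% of all windows. In H2-Aa it lay on both strands as the overlapping palindrome TGACGTCA. No other matches in these genes overlapped. GGGATTCCC was found in the windows of the classical heavy chains H2-K1 and H2-D1 and of no other of the 7 genes, against 0.353% of all windows. The windows of H2-K1 and H2-D1 matched each other over 228 aligned positions, of which 206 were identical (90.4%), so that their shared motifs are not independent. The interferon response core AAANNGAAA was found in 2 of the 7 genes, B2m and H2-T23, against 10.6% of all windows, and in 16 of the 20 interferon-induced genes of a list described further on. Of those 20 genes, 0 held CTGATTGG, 5 held TGACG and 0 held GGGATTCCC. The window of Tapbp held none of the 4 motifs. These matches are letters in a window of fixed length and not measured binding, and H2-K1 was searched at each of its listed starts. Only exact matches were counted, so a gene without a match may still hold a near match. For example, H2-K1 and H2-D1 both hold TTTCACTTC, which differs by a single letter from the interferon response core on the other strand. B2m holds CGGATTGG, which differs by a single letter from CTGATTGG.

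**Figure D1:**
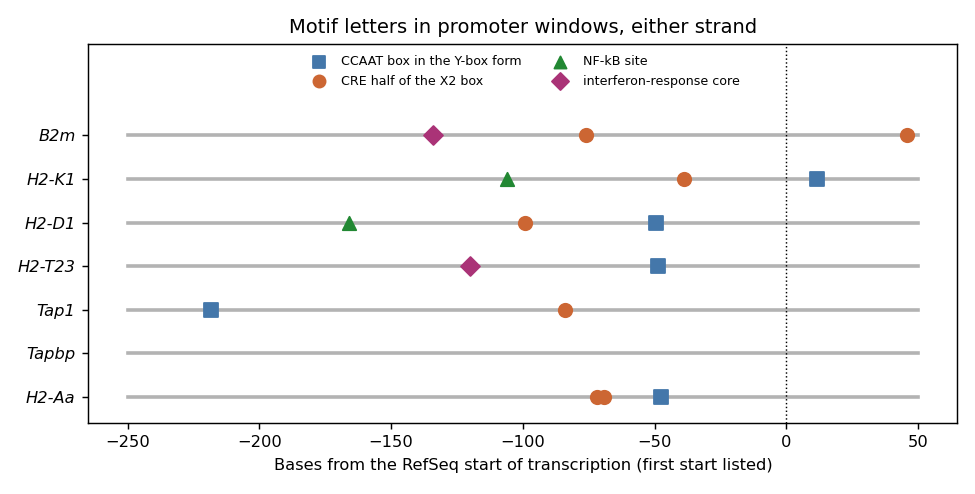
Position of 4 motifs in the RefSeq promoter windows of 7 genes, in bases from the transcription start (dotted line at 0), with 1 symbol per match on either strand. H2-K1, H2-D1 and H2-T23 hold the Y-box letters near the start, and Tapbp holds no match.

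Levels are given as RPKM, reads per kilobase of gene length and scaled to the reads of the library, as the authors' mean over the libraries of a group. The depth behind them was estimated from the steps between low values at 8250825 fragments for each control library and 8334722 for each CUMS library, where a fragment is a pair of reads. Fragments named below are sums over both libraries of a group. The 95% intervals are exact and cover counting error only, without any difference between mice. In bulk tissue a lower value can come from fewer cells of a type or from less RNA per cell, and these cannot be told apart.

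The 10 genes spanned a wide range of levels. The highest was 61.9 times the lowest in control and 66.7 times in CUMS. Together they summed to 136.7 RPKM in control and 143.2 RPKM in CUMS, and B2m with the 3 class I heavy chains made up 82.6% and 82.1% of these sums. The control order was B2m, H2-D1, H2-T23, H2-K1, Tapbp, Tap2, Cd74, Tap1, H2-Ab1 and H2-Aa. Of the 9 neighboring pairs in this order, 3 did not differ beyond counting error, namely H2-T23 and H2-K1 (ratio 1.01, interval 0.874 to 1.18), Tap1 and H2-Ab1 (1.24, 0.737 to 2.16), and H2-Ab1 and H2-Aa (1.13, 0.556 to 2.33). In CUMS, 4 neighboring pairs were within counting error. H2-K1, Tapbp and H2-T23 followed each other there at 14.93, 14.52 and 14.02 RPKM.

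**Figure D2:**
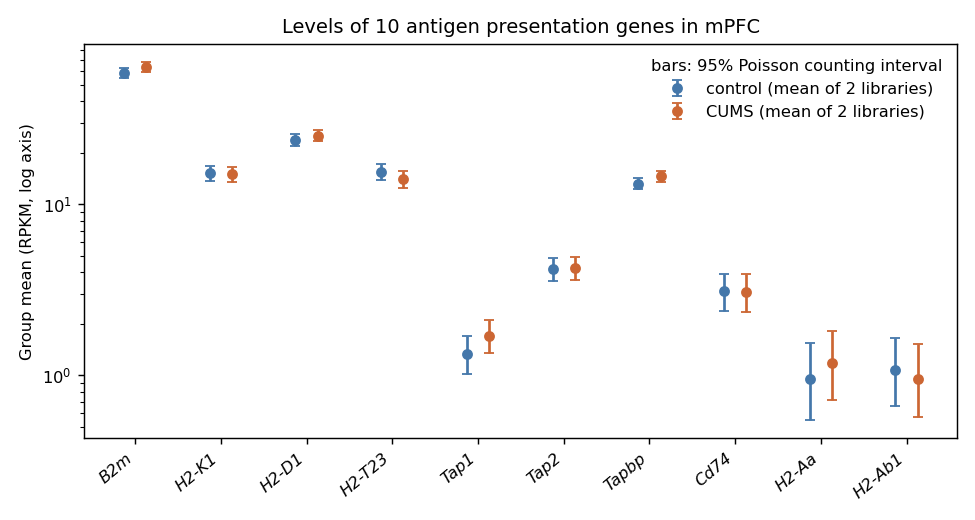
Group mean RPKM (log axis) of the 10 genes in control and CUMS, each point the mean of 2 libraries, with 95% Poisson intervals of the estimated fragments. The control and CUMS intervals of each gene overlap, and the class II chains sit lowest, near 1 RPKM.

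B2m encodes beta-2-microglobulin, the light chain that class I heavy chains share. It was at 58.455 RPKM in control (interval 54.4 to 62.8, 763 fragments) and at 63.385 RPKM in CUMS (59.2 to 67.9, 836 fragments). The log2 ratio of CUMS over control was 0.12 (interval -0.03 to 0.26), a fold of 1.08 that counting error places between 0.982 and 1.2. B2m was the most abundant of the 10, above 90.7% of the 14257 genes that reached 0.5 RPKM in either group.

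H2-K1 and H2-D1 encode the classical heavy chains of this strain, which present peptides to CD8 T cells. H2-K1 (chromosome 17, 33996012 to 34000619) was at 15.185 RPKM in control (401 fragments) and at 14.93 RPKM in CUMS (399 fragments), a log2 ratio of -0.02 (-0.23 to 0.18). H2-D1 (chromosome 17, 35263094 to 35267497) was at 23.83 RPKM (656 fragments) and 25.175 RPKM (700 fragments), a log2 ratio of 0.08 (-0.08 to 0.23). H2-D1 thus exceeded H2-K1 by 1.57 times in control and by 1.69 times in CUMS. B2m came to 1.5 times the sum of the classical chains in control and to 1.58 times in CUMS.

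H2-T23 encodes the heavy chain of Qa-1, a non-classical molecule that shows leader peptides of other class I chains to receptors of natural killer cells. It was at 15.395 RPKM in control (318 fragments) and at 14.02 RPKM in CUMS (292 fragments), a log2 ratio of -0.14 (-0.37 to 0.10). It was expressed at about the level of H2-K1 in both groups. Summed over H2-K1, H2-D1 and H2-T23, the fragments numbered 1375 in control and 1391 in CUMS, a log2 ratio of 0.00 (-0.11 to 0.11).

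Heavy chain genes are near copies of each other, and the study counted uniquely aligned reads, so the share of each gene that other genes also hold was measured. All overlapping 100-base stretches of the GENCODE M21 protein-coding transcript closest in length to the deposited one were searched in the transcripts of all other genes. H2-K1, B2m, Cd74, H2-Aa and H2-Ab1 shared no such stretch with another gene. Only exact matches were searched, whereas the study allowed mismatches in aligned reads, so stretches that differ by a few letters are not covered. H2-D1 shared 4.64% of its stretches, mostly with H2-Q1, and H2-T23 shared 7.28%, mostly with Gm7030. The remaining sharing came from overlapping exons. Exons of Gm19412 on the opposite strand covered 904 of 3628 exon bases of Tapbp (24.9%), those of Gm15821 covered 14.1% of Tap2, and those of Psmb9 covered 3.87% of Tap1. The use of strand is not given in the sources used here, so reads from these overlaps cannot be given to either gene with certainty. On the same strand, exons of Zbtb22 covered 4.11% of Tapbp, and Zbtb22 was at 16.085 RPKM in control and 18.42 RPKM in CUMS.

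Tap1 and Tap2 encode the subunits of the TAP transporter, which pumps peptides into the endoplasmic reticulum. Tap1 (chromosome 17, 34187556 to 34197225) was at 1.325 RPKM in control (63 fragments) and at 1.69 RPKM in CUMS (81 fragments). Its log2 ratio of 0.35 (-0.14 to 0.85) was the largest of the 10, a fold of 1.28 between counting limits of 0.904 and 1.8. Tap2 (chromosome 17, 34204479 to 34216321) was at 4.185 RPKM (167 fragments) and 4.245 RPKM (171 fragments), a log2 ratio of 0.02 (-0.30 to 0.34). Though both proteins enter the transporter in equal number, the Tap2 level was 3.16 times the Tap1 level in control and 2.51 times in CUMS.

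Psmb8 and Psmb9, immunoproteasome subunits encoded beside Tap1, were also low. Psmb8 had the highest ratio of the other genes of peptide supply at 1 RPKM or more, with 1.565 RPKM in control (30 fragments) and 2.275 RPKM in CUMS (44 fragments), a log2 ratio of 0.54 (-0.16 to 1.26). Psmb9, named after its values were seen because its exons meet those of Tap1, had 7 and 12 fragments and a log2 ratio of 0.75 (-0.70 to 2.35). Tap1, Psmb8 and Psmb9 thus each had the higher mean in CUMS, and each within counting error.

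Tapbp encodes tapasin, which bridges the empty class I molecule to TAP and edits the peptides it binds. It was at 13.205 RPKM in control (584 fragments) and at 14.52 RPKM in CUMS (649 fragments), a log2 ratio of 0.14 (-0.03 to 0.30) and a fold between 0.982 and 1.23. Its level was near those of H2-K1 and H2-T23, below that of H2-D1 and above those of Tap1 and Tap2.

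Cd74 encodes the invariant chain, which escorts class II molecules and blocks their groove until peptides are loaded. The gene (chromosome 18, 60803849 to 60812652) was at 3.095 RPKM in control and at 3.065 RPKM in CUMS, with 64 fragments in each group and a log2 ratio of -0.01 (-0.54 to 0.51). H2-Aa and H2-Ab1 encode the alpha and beta chains of the class II molecule I-A. H2-Aa (chromosome 17, 34282744 to 34287823) was at 0.945 RPKM in control (16 fragments) and at 1.175 RPKM in CUMS (20 fragments), a log2 ratio of 0.31 (-0.71 to 1.35). H2-Ab1 (chromosome 17, 34263227 to 34269418) was at 1.07 RPKM (20 fragments) and 0.95 RPKM (18 fragments), a log2 ratio of -0.17 (-1.17 to 0.83). The chains that pair in one molecule thus had ratios of opposite sign, both within counting error. Summed over Cd74, H2-Aa and H2-Ab1, the fragments numbered 100 in control and 102 in CUMS, a log2 ratio of 0.01 (-0.40 to 0.43).

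The classical class I chains exceeded the class II chains in both groups. The sum of H2-K1 and H2-D1 was 19.4 times the sum of H2-Aa and H2-Ab1 in control and 18.9 times in CUMS. Cd74 came to 1.54 and 1.44 times the sum of the class II chains.

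Of the 10 genes, 0 passed a fold of 1.5 in either direction. Among the 14257 genes that reached 0.5 RPKM in control or CUMS, 2.78% passed it upward and 4.42% downward. The counting interval of 0 of the 10 genes excluded equal levels, against 13.2% of all genes upward and 17.8% downward. The count of 0 is near these shares for the fold and below them for counting error, and neither was tested over mice. The estimate of depth matters here. The read numbers that the study gives are higher than the estimate. Counted as pairs and cut to the share mapped to genes, they still come near 2 times the estimate. The limit to unique alignments may not account for all of this gap, which was not resolved. The low values themselves showed no smaller unit, since 9 of 583 control values and 5 of 609 CUMS values under 1.5 steps lay below 0.8 of a step. At 2 times the estimated depth the intervals of B2m, Tap1 and Tapbp would have excluded equal levels upward. The share of all genes at that depth was not computed, so the shares above cannot be set beside it. By sign, 6 genes were higher and 4 were lower in CUMS. Their median log2 ratio was 0.05, and that of all 14257 genes was -0.02. For 7 genes (B2m, H2-K1, H2-D1, H2-T23, Tap2, Tapbp and Cd74) the counting interval lay wholly inside the 1.5-fold limits, whereas that of Tap1, H2-Aa and H2-Ab1 reached past a limit, so that a ratio of 1.5-fold was within the counting error of those 3 genes. An interval that includes 0 does not show that the levels were equal.

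**Figure D3:**
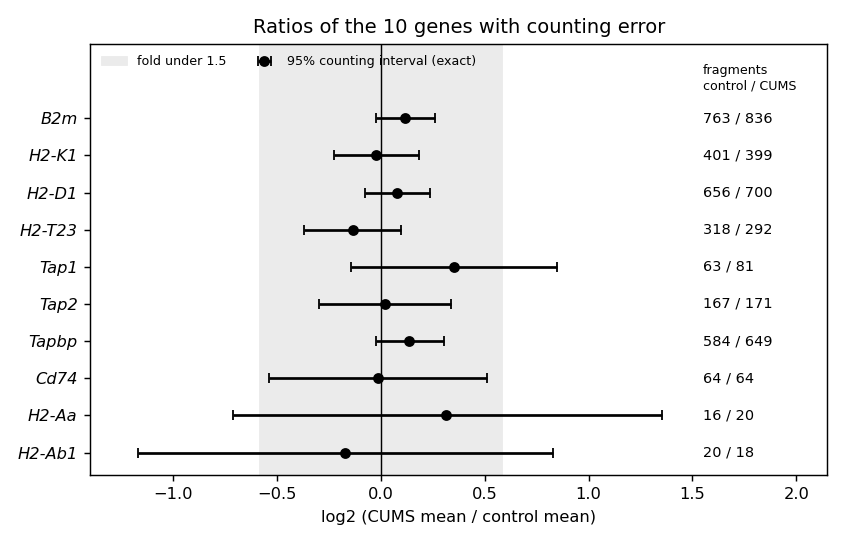
Log2 ratio of CUMS over control for the 10 genes, with exact 95% counting intervals, and the estimated fragments of each group at the right. All intervals include 0, and that of Tap1 and those of the class II chains reach beyond the grey band of folds under 1.5.

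Set beside genes of a like level, each of the 10 genes had an absolute log2 ratio under the 90th percentile. From 5 to 30 RPKM the median absolute log2 ratio of 6359 genes was 0.11, and H2-K1, H2-D1, H2-T23 and Tapbp had absolute log2 ratios from 0.02 to 0.14. From 1.5 to 5 RPKM it was 0.19 over 2908 genes, with Cd74 and Tap2 below it and Tap1 above it at 0.35. B2m, at 0.12, was above the median of 0.09 of the 2086 genes from 30 to 100 RPKM, and below their 90th percentile of 0.22. H2-Aa and H2-Ab1 were each under the median of 0.33 of genes from 0.5 to 1.5 RPKM.

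**Figure D4:**
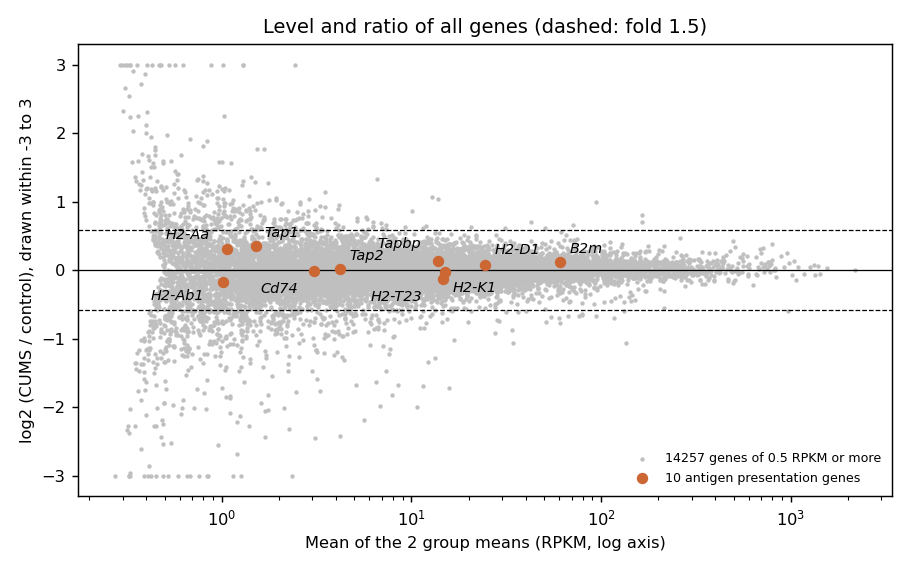
Mean of both group means (RPKM, log axis) against the log2 ratio of CUMS over control for 14257 genes (grey), with the 10 antigen presentation genes in orange and the 1.5-fold limits dashed. The 10 genes lie between the limits, and 39 other genes beyond a log2 ratio of 3 are drawn at the edge.

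Other genes of the pathway were taken as lists, and counts are given for those genes that reached 0.5 RPKM in control or CUMS. Among all 14257 such genes, 2.78% passed the fold upward and 4.42% downward, and 13.2% and 17.8% were past counting error. Of 7 further class I heavy chains, 0 passed the fold upward and 1 downward (H2-Q2, with 11 and 4 fragments, named after its values were seen), and the median log2 ratio was -0.24. H2-Q2 reached 0.5 RPKM through its control value alone. H2-T22, a non-classical chain, was the 1 chain past counting error, at 10.39 RPKM in control and 8.455 RPKM in CUMS, a log2 ratio of -0.30 (-0.55 to -0.05). The lowest ratio among chains at 1 RPKM or more was that of H2-T10 at -0.37 (-0.89 to 0.15), and the highest was that of H2-M3 at 0.09 (-0.56 to 0.74). Summed with the 3 heavy chains among the 10 genes, the fragments of 18 class I chains numbered 2330 in control and 2229 in CUMS, a log2 ratio of -0.08 (-0.16 to 0.01). The chains share stretches with each other, so the division of reads among them is uncertain.

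Among 5 class I-like molecules, which have the class I fold but other ligands, 0 passed the fold and the median log2 ratio was 0.34. Fcgrt, the neonatal Fc receptor that uses beta-2-microglobulin as its light chain, was past counting error at 10.93 RPKM in control and 12.885 RPKM in CUMS, a log2 ratio of 0.24 (0.01 to 0.47), and had the lowest ratio of the list at 1 RPKM or more. The highest was that of Hfe, the hemochromatosis protein that also pairs with beta-2-microglobulin, at 0.55 (-0.06 to 1.16).

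Of 12 genes of peptide supply and loading, 1 passed the fold upward (Psmb9, given above) and 0 downward, and the median log2 ratio was 0.07. Calr, the chaperone calreticulin of the loading complex, was at 223.775 RPKM in control and 185.44 RPKM in CUMS, a log2 ratio of -0.27 (-0.32 to -0.22), the 1 gene of the list past counting error. It serves many other proteins as well. Of 11 further class II genes, 1 passed the fold upward (H2-DMb2, with 5 and 9 fragments, named after its values were seen) and 1 downward (H2-DMb1), 0 were past counting error, and the median log2 ratio was -0.02. H2-DMb2 reached the 0.5 RPKM limit through its CUMS value alone. H2-DMb1, a chain of the peptide editor H2-DM, had the lowest ratio at 1 RPKM or more, -0.63 (-1.65 to 0.25), with 27 and 17 fragments. Ctss, the protease that cuts the invariant chain, had the highest at that level, 0.13 (-0.02 to 0.29).

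Of 17 regulators of MHC transcription, 1 passed the fold upward (Irf1), 7 were past counting error upward and 2 downward, and the median log2 ratio was 0.03. Over all 14257 genes, 13.2% were past counting error upward and 17.8% downward. Irf1, an activator of class I genes and of TAP1, had 2.66 RPKM in control (91 fragments) and 4.04 RPKM in CUMS (139 fragments), a log2 ratio of 0.60 (0.20 to 0.99). The interferon-gamma receptor chains Ifngr1 (0.34) and Ifngr2 (0.16), the kinase Jak1 (0.14), the X-box factor Rfxap (0.22) and the CCAAT-box factor Nfyb (0.26) were also past counting error upward on the log2 scale. The kinase Jak2 (-0.19) and the CCAAT-box factor Nfyc (-0.26) were past it downward. The master activators were scarce. Nlrc5, the activator of class I genes, had 8 fragments in control and 20 in CUMS, a log2 ratio of 1.32 (0.06 to 2.70), and Ciita, the activator of class II genes, had 6 in each group. These activators were under 0.5 RPKM and were named after their values were seen.

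Interferon-induced genes other than those of antigen presentation were read as a further list. Of 21 genes, 14 passed the fold upward and 0 downward, against 2.78% and 4.42% of all 14257 genes. Of the 21 genes, 18 were higher and 3 lower in CUMS, and the median log2 ratio was 0.89. Since some reached 0.5 RPKM through their CUMS value alone, the count was repeated over the 11 genes of 1 RPKM or more in control, of which 5 passed the fold upward, against 0.908% of 12887 genes. Among the genes that reached 1 RPKM in control or CUMS, the highest ratio was that of Oasl2, of the oligoadenylate synthetase family, at 0.75 RPKM in control (38 fragments) and 1.845 RPKM in CUMS (94 fragments), a log2 ratio of 1.30 (0.73 to 1.88). Irf7 (log2 ratio 1.02), Gbp3 (0.97), Irgm2 (0.95), Bst2 (0.94), Gbp2 (0.93), Ifit3 (0.89), Ifit1 (0.87), Irgm1 (0.85), Rtp4 (0.78), Ifitm3 (0.46) and Stat2 (0.37) were past counting error upward as well. Irf9 had the lowest ratio at that level, -0.29 (-0.56 to -0.04). Whether the ratios of this list and of the 10 genes differ over mice was not tested, since it needs a value per library. Cd247, the T-cell receptor zeta chain that has been named as a class I partner in the brain, was at 4.66 RPKM in control and 3.585 RPKM in CUMS, a log2 ratio of -0.38 (-0.75 to -0.01), and was the 1 gene of 3 in its list that reached 0.5 RPKM.

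**Figure D5:**
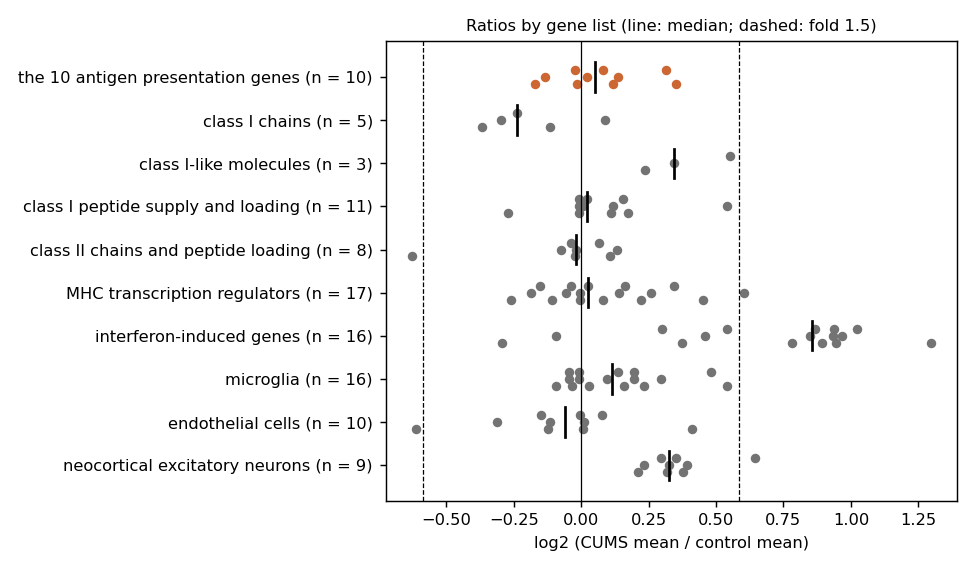
Log2 ratios of CUMS over control by gene list, 1 point per gene that reached 1 RPKM in control or CUMS, the list median as a line and the 1.5-fold limits dashed. The 10 antigen presentation genes lie around 0 between the limits, while most interferon-induced genes drawn lie above the upper limit. Some of those reached 1 RPKM through their CUMS value alone, and of the 11 at 1 RPKM or more in control, 5 passed the limit.

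Markers of the cells that could carry these transcripts were read from the same table. All 16 microglia markers reached 0.5 RPKM, and they summed to 346.9 RPKM in control and 363.5 RPKM in CUMS, with a median log2 ratio of 0.12, 0 past the fold and 5 past counting error upward. The share of all 14257 genes past counting error upward was 13.2%. Of 8 border macrophage markers, 4 reached 0.5 RPKM, and the sum was 3.43 RPKM in control against 4.97 RPKM in CUMS. Each of the 8 had the higher mean in CUMS. The median log2 ratio of those 4, of which Mrc1 reached 0.5 RPKM in CUMS alone, was 0.49. Of them Cbr2 passed the fold at 1.74 (12 and 21 fragments), and Lyve1, under 0.5 RPKM, was past counting error with 6 and 19 fragments. The 4 B-cell markers in the table summed to 0.49 RPKM and 0.57 RPKM, and 0 reached 0.5 RPKM. The 6 dendritic-cell markers summed to 6.44 RPKM and 7.59 RPKM. Of these, Zbtb46 (4.08 RPKM and 5.74 RPKM, log2 ratio 0.49, past counting error) and Flt3 (1.665 RPKM and 1.28 RPKM) reached 0.5 RPKM, and the integrin Itgax had 3 and 5 fragments. The 6 T-cell markers summed to 2.66 RPKM and 2.91 RPKM, mostly from Cd4 and Lck, and the defining chains Cd3d and Cd3e stood in control at the value that marks 0, with 1 fragment each in CUMS. The class II chains thus stood beside B-cell markers and the chains Cd3d and Cd3e near 0 in both groups. They also stood beside Cd4 at 1.645 RPKM and 2.085 RPKM, and beside the microglia, border macrophage and dendritic-cell markers at the levels given above.

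Some other cell markers differed between the groups past the fold. The 7 neutrophil markers in the table were all at or under 3 fragments in control and summed to 0.705 RPKM there and to 8.925 RPKM in CUMS, so that those of at least 0.5 RPKM reached this level through CUMS alone. Red-cell markers summed to 222.3 RPKM and 385.3 RPKM, and 5 of 5 passed the fold upward, of which 4 were past counting error and Hbb-b2 (1 and 5 fragments) was not. Hbb-b2 also reached 0.5 RPKM through CUMS alone. The 10 endothelial markers summed to 186.0 RPKM and 172.4 RPKM, with a median log2 ratio of -0.06, 1 past the fold downward (Cldn5), 1 past counting error upward and 2 downward. The 6 choroid plexus markers summed to 5.145 RPKM and 3.055 RPKM, with 2 of the 3 that reached 0.5 RPKM past the fold downward (Otx2 and Clic6), while Kcnj13, under 0.5 RPKM, had 0 and 9 fragments. Otx2 reached 0.5 RPKM through its control value alone. The labelled tissue was met by 9 of 9 markers of neocortical excitatory neurons, which summed to 2273 RPKM in control and 2798 RPKM in CUMS, each past counting error upward, with a median log2 ratio of 0.33. Endothelial cells and blood cells also make class I chains and beta-2-microglobulin, and the part of these cells in the values of the 10 genes was not tested.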

How the data were processed

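Paired reads of poly(A) RNA were aligned to mm10 with TopHat 1.0.12 and Bowtie 0.11.3, per the submitters' processing notes. The annotation is not given in the sources used here. The deposited values were RPKM of uniquely aligned reads, averaged by the authors over the 2 libraries of each group, with 0.01 in place of 0. The deposited gene length, in bases, was the other column used. The authors' log2 ratio, direction and NOISeq probability were not used.

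Depth was estimated from values of 1 fragment as mean = step/(length - 67) + 0.005, with genes of 400 to 3000 bases (574 control and 595 CUMS values). With these steps 93.6% and 92.6% of low values lay within 0.15 of a whole number, and the fragments over all genes came to 99.86% of the estimated depth in both groups, which bears on the length offset and not on the depth. This model was chosen after seeing the data. Depth is an estimate, and libraries of a group were taken as equally deep. Level intervals were exact Poisson and ratio intervals Clopper-Pearson at 95%, with a floor of 3 counts. Reads carried no molecular identifiers, so intervals and floors cover counting error only. With 1 mean per group no test over samples was possible, and no p-value is given. The calculation was tested on data simulated under the same counting model with equally deep libraries. That test cannot bear on the true depth of these libraries or on the spread between mice.

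Members, lists and thresholds were chosen with earlier results of these data known. Named were all 10 members, genes of the pathway lists of at least 1 RPKM past counting error, and the highest and lowest ratio of each such list, and some genes of the lists are not reported here by name. Coordinates are RefSeq spans of GRCm38.p6, the assembly of mm10, matched by gene identifier for 10 of 10 members. Python 3.11.15, numpy 2.4.6, pandas 2.3.3, scipy 1.17.1, Biopython 1.88 and matplotlib 3.10.9 were used.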

Additional observations from a re-analysis of the deposited data

How the results depend on the processing

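The table gives group means alone, so replicates could not be left out in turn, and fits over libraries were not run. No paired analysis was possible because no value of a single library was used and no result comes from a test. At the lower of the alternative fold limits, 1 of the 10 genes passed, namely Tap1 at a fold of 1.28, and at a fold of 2 none did. At 2 times the estimated depth 3 of the 10 genes were past counting error, namely B2m (interval 0.02 to 0.22), Tap1 (0.003 to 0.70) and Tapbp (0.02 to 0.25), so the statement that none was past it rests on the depth estimate. The share of all genes past counting error was not computed at that depth. Without the length offset, an alternative added after seeing the data, the estimate was 7744734 fragments for each control library and 7832080 for each CUMS library, and 0 genes were past counting error. Over 30 values of single members under another scaling or pseudocount, 30 moved by less than 0.5 times the counting interval. The 1 change of sign was Cd74, at 0.00108 after rescaling to a median of 0, which shifts all log2 ratios by 0.0151. Of the interferon-induced genes 10 instead of 14 passed the fold with a pseudocount of 0.5 RPKM or a mean of at least 1 RPKM, and 5 passed at 1 RPKM or more in control, all added later.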
